A study of Mus musculus with 8 samples.

Results

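The 45 genes described here encode the machinery of the primary cilium and of intraflagellar transport (IFT), and their RNA-Seq values come from NIH3T3, a line of mouse embryonic fibroblasts able to answer Hedgehog ligand. They were taken from a fixed list by name, and each gene was given, in each library, the assembled locus whose mm9 span overlapped the annotated gene best, provided that the shared length was 0.5 or more of the joint length. Of the 45 genes, 43 had a value in all 8 libraries, and all 43 reached 1 FPKM in 2 or more libraries and were tested, as did 10282 of the 20192 genes with a value in all 8. FPKM counts fragments per kilobase of transcript, relative to all mapped fragments of a library, so that levels of different genes are per length.

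The 8 libraries stood for 4 conditions, in duplicate. For Control, NIH3T3-pc3.1 cells, transfected with an empty pcDNA3.1 (Zeo+) vector, received vehicle. Hh-CM cells were the same cells treated for 48 h with Hh-CM, a Hedgehog conditioned medium diluted 1:100. In the study this medium was collected from cultured cells carrying a Sonic Hedgehog transgene. Vehicle was medium at the same dilution from such cells without the transgene. For Esrrb and Esrrb+Hh-CM, NIH3T3-Esrrb cells, whose vector holds Esrrb, the gene of estrogen related receptor β, received vehicle or Hh-CM. All cells were selected with Zeocin for stable transfection and were treated when confluent in medium with a reduced share of newborn calf serum. Cells from independent transfections were pooled, and nothing says that the libraries of a condition came from separate ones, so p-values measure the spread between these libraries only.

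The transfected gene had no RNA value above 0 in the libraries labelled with it. Esrrb was listed at 0 FPKM in both Esrrb and both Esrrb+Hh-CM libraries and in both Control libraries, and at 0.0281 and 0.0203 FPKM in the Hh-CM libraries, so these values do not check the label, and "Esrrb" below means the libraries so labelled. The study tested the protein by Western blot, which is not part of the data analysed here. The treatment was seen: Gli1, a Hedgehog target that marks pathway activity, was at 0.0217 and 0.0308 FPKM in Control, 26.8 and 28.1 in Hh-CM, 0.106 and 0.0372 in Esrrb and 34.5 and 34.8 in Esrrb+Hh-CM libraries. Ptch1, a Hedgehog receptor that the pathway induces, rose as well (log2 difference of 3.73 in Hh-CM minus Control, limma adjusted p = 3.38e-05), while Hhip was listed at 0 in all 8 libraries. The 9 fibroblast markers with a value lay between 28.2 and 1818 FPKM, and the markers of epithelium (6 of 6) and adipocytes (5 of 5) stayed below 1 FPKM. Of the endothelial markers, Tek passed 1 FPKM, between 1.06 and 1.51 in the Hh-CM and Esrrb+Hh-CM libraries against 0.108 or less in the others, and of the macrophage markers, Cd68 did, with up to 2.45. Depth relative to Control replicate 1, read from the steps of low values, ran from 0.743 to 1.54.

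A primary cilium is a single antenna of microtubules that grows from the mother centriole of a resting cell and is taken down again as the cell re-enters division. Its proteins are carried outward by kinesin-2 with the IFT-B complex and back by dynein-2 with IFT-A, a transition zone at the base controls what enters, and the BBSome, with the GTPase Arl6, carries membrane receptors out. In vertebrate cells Hedgehog ligand is received at this organelle: Patched leaves it, Smoothened enters it, and the Gli factors are processed through it, which is why loss of many of these genes disturbs Hedgehog responses in fibroblasts. Motile cilia have further axonemal parts, and here the 14 listed motile axoneme and multiciliated cell genes were all below 1 FPKM in every library, at most 0.399, and 4 of them were listed at 0 throughout.

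Many cilium genes are known targets of RFX factors, which bind an X-box, an inverted repeat in the promoter. RefSeq promoters, 250 bases before to 50 after the start site on GRCm38.p6, were found for 40 of the 45 genes, all but Ift80, Ift81, Ift122, Dync2li1 and Tmem67. The hexamer GTTGCC or its complement GGCAAC stood in 16 of the 40 (40.0%) and in 14.1% of the promoters of 27025 genes. The longer repeat, GTNNCC and GGNAAC with 0 to 3 bases between, searched on both strands, stood in 7 of the 40 (17.5%) and in 2.68% of all, and it can contain the hexamer. It was found in Bbs1, Bbs4, Bbs7, Ift57, Mks1, Tctn1 and Tctn2. Of these, Bbs7, Ift57, Mks1 and Tctn2 changed in at least 1 comparison, with a limma adjusted p below 0.05. So did 37.2% of the tested cilium genes and 46.0% of all tested genes, and a link between repeat and change was not tested. The repeats are shown as the letters that these genes share, each 30 bases in the direction of the gene with the repeat in capitals.
Bbs1, chr19:4906605-4906634: ctgagctgGTTGCCAAGGCGACgcctggga
Bbs4, chr9:59353464-59353493: ctcagctgGTCGCCCGGGAAACggtcggct
Bbs7, chr3:36613489-36613518: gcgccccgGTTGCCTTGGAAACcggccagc
Ift57, chr16:49699199-49699228: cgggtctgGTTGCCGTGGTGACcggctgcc
Ift57, chr16:49699226-49699255: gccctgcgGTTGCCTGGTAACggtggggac
Mks1, chr11:87853183-87853212: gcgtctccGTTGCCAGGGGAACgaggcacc
Tctn1, chr5:122264411-122264440: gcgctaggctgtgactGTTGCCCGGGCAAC
Tctn2, chr5:124598679-124598708: gattggagGTTACCATGGCTACtggtcctc
Counted from the start site, the repeats of Bbs7 (-121), Tctn2 (-62), Mks1 (-24) and Ift57 (-87 and -60) begin before it, and those of Bbs1 (2), Bbs4 (24) and Tctn1 (37) begin after it. A match is a description of the letters, and binding was not measured here.

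The 43 genes were expressed at moderate levels. Their mean FPKM over the 8 libraries ran from 1.15 for Dync2h1 to 80.7 for Arl3, with a median of 10.5, against 12.4 for all tested genes. Apart from Mks1, all of them were at 1 FPKM or more in every library. Transcripts of the same complex differed widely per length: of dynein-2, the light intermediate chain Dync2li1 had a mean of 49.0 FPKM and the heavy chain Dync2h1 1.15. The spread over the 8 libraries was that of other genes, with a median SD of log2 values of 0.178 for the cilium genes and 0.173 for all tested genes. It was lowest for Rab23 (0.0497), a small GTPase that restrains Hedgehog signaling, and highest for Ofd1 (2.04), a protein of the distal centriole. Cufflinks gave an interval with each value, whose median half-width was 10.1% of the value, from 5.32% for Kifap3 to 36.8% for Mks1. Of the 344 values, 20 lay outside their own interval, those of Ift20, Dync2li1, Arl3, B9d1 and Ofd1 in some libraries, and the intervals entered no test.

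**Figure D1:**
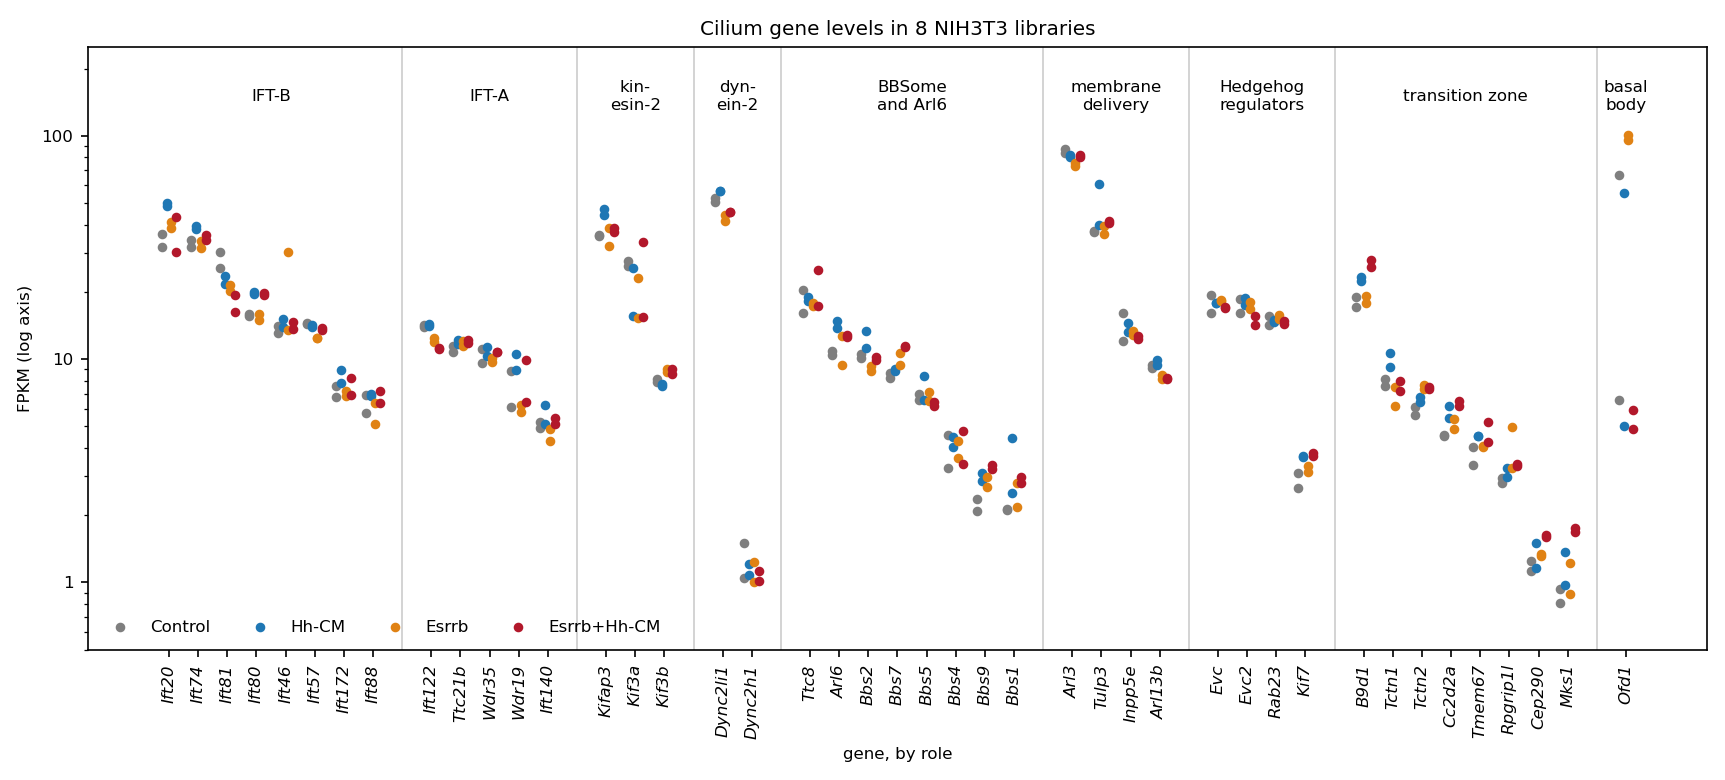
FPKM of the 43 tested cilium genes (horizontal, grouped by role) in each of the 8 libraries (points, coloured by condition), on a log axis. Most genes keep their level across conditions, Arl3 is highest and Dync2h1 lowest by mean, and Ofd1 falls into a group of libraries at 55.6 or more and a group at 6.59 or less.

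The 5 comparisons asked how the cilium genes stood after Hh-CM, in the Esrrb libraries, and with both. Of the 43 genes, 16 had an adjusted p below 0.05 in at least 1 comparison and 27 in none. That was 37.2% of them, against 46.0% of all tested genes. In 2 or more comparisons it was 6 genes (14.0%), against 33.3% of all. Below, a gene that passed is one with such a p. Hh-CM minus Control had 4 genes, all higher, while 18.0% of all tested genes passed there (10.5% higher and 7.53% lower). Esrrb minus Control had 5, of which 1 was higher and 4 lower, against 16.4% of all genes (10.2% higher and 6.16% lower). Esrrb+Hh-CM minus Control had 11, of which 8 were higher and 3 lower, against 35.1% (23.0% higher and 12.0% lower). Esrrb+Hh-CM minus Hh-CM had 4, of which 1 was higher and 3 lower, against 18.9% (12.4% and 6.54%). Esrrb+Hh-CM minus Esrrb had 2, both higher, against 23.4% (13.9% and 9.51%). The cilium genes thus passed in 9.3%, 11.6%, 25.6%, 9.3% and 4.65%, below the background in each comparison, and comparisons that share libraries are not independent of each other.

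No cilium gene had an adjusted p below 0.05 together with a log2 change of at least 1 in size in any of the 5 comparisons. Among all tested genes, 2.76%, 1.47%, 6.22%, 1.98% and 4.81% did. The changes were small: 41 of 43 lay within 0.5 log2 in Hh-CM minus Control (95.3%, against 86.0% of all genes) and 38 of 43 in Esrrb+Hh-CM minus Control (88.4%, against 79.2%). The median SE of a difference was 0.115 log2, so a small change in a gene that missed the threshold cannot be told from none. At an unadjusted p under 0.05 there were 14, 10, 14, 14 and 9 of the 43 genes, while 32.1%, 32.5%, 45.3%, 34.8% and 35.6% of all genes had such a p. The interaction, which asks whether the Hh-CM response differed between Esrrb and NIH3T3-pc3.1 cells, had no cilium gene with an adjusted p below 0.05 by limma, against 1.35% of all genes. At an unadjusted p under 0.05 it had 3, against 18.0% of all. The median interaction of the cilium genes was -0.081, against 0.000625 for all genes.

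**Figure D2:**
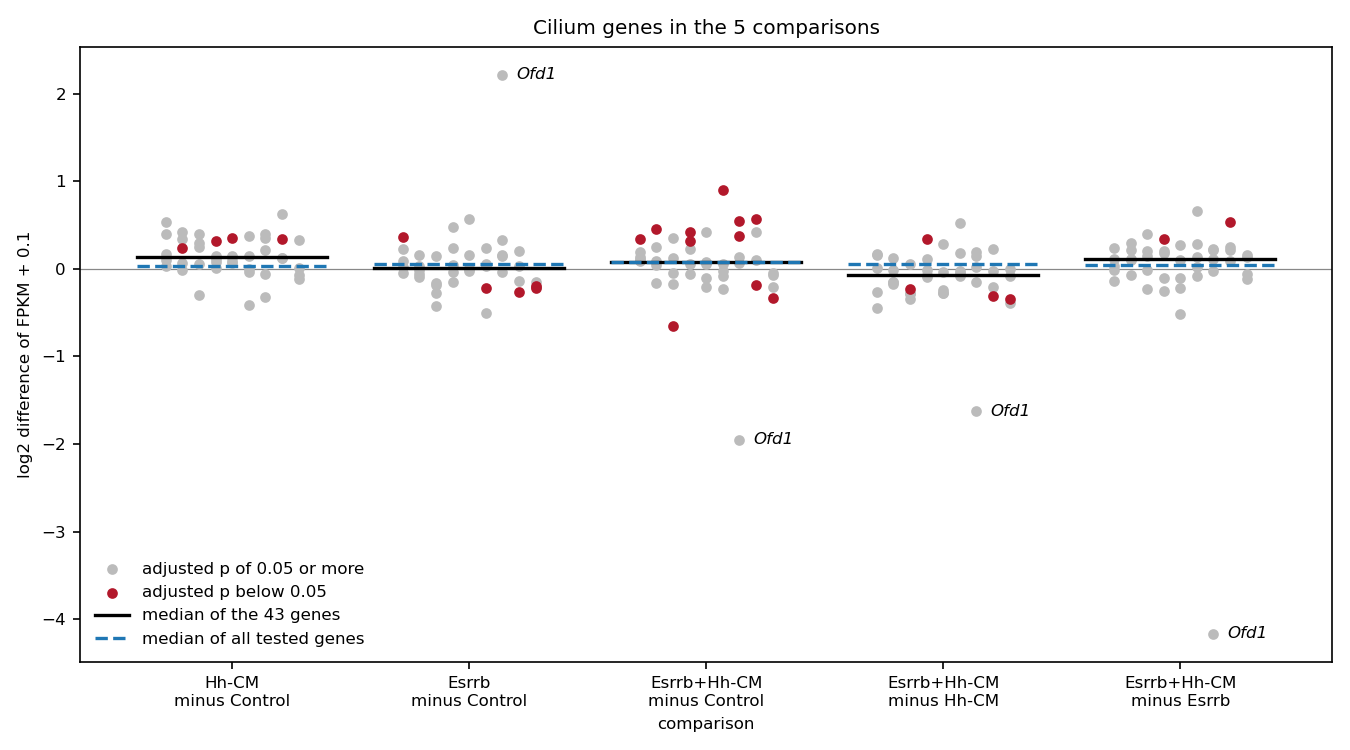
Log2 difference of FPKM + 0.1 for the 43 cilium genes (points) in the 5 comparisons, with the adjusted p by colour, their median (black line) and the median of all tested genes (dashed line). The points that passed lie within 1 log2, and the only points beyond 1 are those of Ofd1, none of which passed.

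The median of the cilium genes was 0.13 log2 in Hh-CM minus Control, where 35 of 43 were above 0, and 0.035 for all genes. The share of all genes above 0 is not given here. After the rescaling described below, fewer cilium genes were above 0 in Hh-CM minus Control, and their median was lower. Without rescaling, the median of the cilium genes was 0.0055 in Esrrb minus Control (0.051 for all) and 0.080 in Esrrb+Hh-CM minus Control (0.082). It was -0.067 in Esrrb+Hh-CM minus Hh-CM (0.050) and 0.11 in Esrrb+Hh-CM minus Esrrb (0.038). Each library was also divided by its median ratio to the others, factors of 0.967 to 1.035. The Esrrb+Hh-CM minus Control median of the cilium genes then became -0.0028. With these factors Kif7 no longer passed as higher in that comparison. Arl13b, Arl3, Evc2 and Ift57 passed there in addition, all as lower (-0.261, -0.153, -0.295 and -0.162 log2). In the next paragraphs values of a gene are in the order replicate 1 and replicate 2, and differences are log2 of FPKM + 0.1 with the SE and the Benjamini-Hochberg adjusted p of limma. Each call of a listed cilium gene was repeated under 17 to 19 other settings, which included each library left out in turn. Below, the libraries whose removal lost a call are named, and losses under the remaining settings are given in the closing section.

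The IFT-B complex carries cargo toward the tip. Ift80 (chr3:68696421-68808492, minus strand, mm9), a peripheral subunit whose human gene is mutated in a skeletal ciliopathy, had the lowest adjusted p among the IFT-B genes. It was at 15.5 and 15.9 FPKM in Control, 19.5 and 19.9 in Hh-CM, 15.9 and 14.9 in Esrrb and 19.8 and 19.4 in Esrrb+Hh-CM libraries. All 4 Hh-CM treated libraries lay above all 4 vehicle libraries. Ift80 rose by Hh-CM in NIH3T3-pc3.1 cells (0.32, SE 0.048, adjusted p = 0.00789) and in Esrrb cells (0.35, adjusted p = 0.00438). These comparisons share no library but use the same estimate of the spread. The interaction was 0.023 (adjusted p = 0.888). Ift80 was also higher in Esrrb+Hh-CM than in Control (0.31, adjusted p = 0.00466). The rise in NIH3T3-pc3.1 cells passed in 17 of 19 settings and was lost without Control replicate 1 or Hh-CM replicate 2, with 0.29 to 0.34 log2 and adjusted p of at most 0.0518 over the settings. The other calls of Ift80 passed in 19 of 19.

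Ift81 and Ift74 form the tubulin-binding module of IFT-B. Ift81 (chr5:123000213-123064527, minus strand) was at 25.7 and 30.2 FPKM in Control, 21.7 and 23.6 in Hh-CM, 21.4 and 20.2 in Esrrb and 19.4 and 16.2 in Esrrb+Hh-CM libraries. Both Control libraries were above all others, and both Esrrb+Hh-CM libraries below all others. It fell by 0.65 in Esrrb+Hh-CM minus Control (SE 0.115, adjusted p = 0.00815), the largest fall among the called cilium genes, and passed in 18 of 18 settings. Its assembled locus was 74.0 kb or longer in 5 libraries, both Control ones among them, and 64.4 kb or shorter in 3, and in each condition with both lengths the longer one had the higher FPKM. A setting that keeps only genes with the same locus in all libraries could therefore not test Ift81. Ift74 (chr4:94281182-94359920, plus strand) was at 31.9 and 34.2 in Control, 39.5 and 38.3 in Hh-CM, 31.4 and 33.9 in Esrrb and 36.0 and 34.2 in Esrrb+Hh-CM libraries. It rose in Hh-CM minus Control (0.24, SE 0.060, adjusted p = 0.0458), but passed in only 5 of 18 settings and was lost whichever library was left out (0.18 to 0.29 over the settings). Its span holds Lrrc19 and, on the opposite strand, a further annotated gene.

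Ift57 (chr16:49699346-49765239, plus strand), a peripheral IFT-B subunit, carries the pair of repeats shown above. The 250 bases before its RefSeq start site (GRCm38.p6, chr16:49699044-49699293) are printed because both repeats, in capitals, stand close together in it.
Ift57 promoter: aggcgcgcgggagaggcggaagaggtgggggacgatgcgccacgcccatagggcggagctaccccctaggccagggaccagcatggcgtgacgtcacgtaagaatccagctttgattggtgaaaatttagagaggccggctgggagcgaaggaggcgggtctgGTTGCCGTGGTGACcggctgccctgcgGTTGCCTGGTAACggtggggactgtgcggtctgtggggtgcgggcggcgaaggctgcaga
Ift57 was at 14.4 and 14.5 FPKM in Control, 14.3 and 14.0 in Hh-CM, 12.4 and 12.4 in Esrrb and 13.8 and 13.5 in Esrrb+Hh-CM libraries. The Esrrb libraries were below all others, and it fell by 0.22 in Esrrb minus Control (SE 0.042, adjusted p = 0.0243). The call passed in 11 of 18 settings (adjusted p of at most 0.105) and was lost without either Control, either Esrrb or either Hh-CM library. Ift20, the Golgi-associated IFT-B subunit and the IFT-B gene with the highest mean, was at 31.9 and 36.4 in Control, 50.01 and 48.5 in Hh-CM, 41.3 and 38.5 in Esrrb and 43.2 and 30.3 in Esrrb+Hh-CM libraries, and its difference in Hh-CM minus Control of 0.53 had an adjusted p of 0.0834. Ift46 was at 13.1 to 15.1 in 7 libraries and at 30.2 in Esrrb replicate 2, and without Esrrb replicate 1 it passed in Esrrb minus Control (1.14 log2, adjusted p = 0.0066). Ift88 and Ift172, core and peripheral subunits long used as cilium knockouts, lay at 5.12 to 7.22 and 6.79 to 8.95 FPKM and passed in no comparison.

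IFT-A carries cargo back to the base and brings receptors into the cilium. Ift122 (chr6:115803488-115876717, plus strand), a core subunit whose loss raises Hedgehog signaling in the mouse, was the IFT-A gene that changed. It was at 14.0 and 14.3 FPKM in Control, 14.0 and 14.4 in Hh-CM, 12.4 and 11.9 in Esrrb and 11.2 and 11.1 in Esrrb+Hh-CM libraries. All 4 Esrrb-labelled libraries lay below all 4 NIH3T3-pc3.1 libraries. It fell by 0.22 in Esrrb minus Control (SE 0.046, adjusted p = 0.0309) and by 0.35 in Esrrb+Hh-CM minus Hh-CM (adjusted p = 0.00712). Those comparisons share no library, but they set the same cell lines against each other and use the same estimate of the spread. Ift122 also fell by 0.34 in Esrrb+Hh-CM minus Control (adjusted p = 0.00323). The last 2 passed in 19 of 19 settings, and the Esrrb minus Control call in 11 of 19, lost without either library of Control, Esrrb or Hh-CM (adjusted p of at most 0.128). Hh-CM alone left it 0.0097 log2 from Control (adjusted p = 0.925). The other IFT-A genes passed in no comparison: Wdr35 lay at 9.64 to 11.3, Ttc21b at 10.7 to 12.2, Ift140 at 4.3 to 6.24, and Wdr19 at 5.83 to 10.5 FPKM, with its Control libraries at 6.09 and 8.83.

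Of the motors, Dync2li1 (chr17:85025836-85054898, plus strand), the light intermediate chain that stabilises dynein-2, was again lower in the Esrrb-labelled libraries. It was at 50.7 and 52.4 FPKM in Control, 56.3 and 56.3 in Hh-CM, 41.4 and 44.1 in Esrrb and 45.4 and 45.5 in Esrrb+Hh-CM libraries. All 4 Esrrb-labelled libraries lay below all 4 NIH3T3-pc3.1 libraries. It fell by 0.27 in Esrrb minus Control (SE 0.042, adjusted p = 0.0129), by 0.31 in Esrrb+Hh-CM minus Hh-CM (adjusted p = 0.00757) and by 0.18 in Esrrb+Hh-CM minus Control (adjusted p = 0.0215). The fall under Hh-CM passed in 18 of 18 settings. The other falls passed in 14 of 18 each (adjusted p of at most 0.0705 and 0.105), and both were lost without either Control library, the Esrrb minus Control one also without Esrrb replicate 1 and the Esrrb+Hh-CM minus Control one also without either Esrrb+Hh-CM library. The heavy chain Dync2h1 lay at 1.01 to 1.5 FPKM and passed in no comparison.

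Kifap3 (chr1:165709714-165847240, plus strand), the adaptor that joins the kinesin-2 motor pair to cargo, was at 35.7 and 35.8 FPKM in Control, 44.2 and 47.1 in Hh-CM, 32.2 and 38.5 in Esrrb and 37.0 and 38.7 in Esrrb+Hh-CM libraries. The Hh-CM libraries stood above all others. It rose in Hh-CM minus Control (0.35, SE 0.088, adjusted p = 0.044) but passed in 9 of 18 settings, and was lost without either library of Control, Hh-CM or Esrrb+Hh-CM (0.31 to 0.40 log2, adjusted p of at most 0.179). The motor subunit Kif3b lay at 7.59 to 9.06 FPKM and passed in no comparison, with a difference of 0.19 in Esrrb+Hh-CM minus Hh-CM (adjusted p = 0.0611). Its partner Kif3a was at 26.1 and 27.4 in Control, 25.7 and 15.6 in Hh-CM, 15.2 and 23.2 in Esrrb and 15.5 and 33.5 in Esrrb+Hh-CM libraries, so that libraries of 1 condition differed more than the conditions did.

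The transition zone, the gate between cilium and cell body, held 4 of the 16 genes that changed, B9d1, Mks1, Cc2d2a and Tctn2. That was 4 of its 8 tested genes, where 46.0% of all tested genes passed in at least 1 comparison. In Hh-CM minus Control, 8 of 8 transition zone genes were above 0 with a median of 0.31, also when the libraries were rescaled (median 0.28), and 1 passed, against 18.0% of all genes. In Esrrb+Hh-CM minus Control 7 of 8 were above 0 with a median of 0.39 (0.31 rescaled), and 4 passed, all higher, against 23.0% of all genes in that direction. With 8 genes these counts are a description. The shift was not particular to this group: in the same comparisons further cilium assembly factors had medians of 0.32 and 0.466. Other transition zone and distal appendage genes had 0.162 and 0.319. Medians were lower for other IFT genes (0.106 and 0.125) and other BBS genes (0.0224 and 0.155).

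B9d1 (chr11:61318646-61326433, plus strand), a B9 domain protein of the Meckel syndrome module, had the lowest adjusted p of the cilium genes. It was at 19.0 and 17.2 FPKM in Control, 23.4 and 22.5 in Hh-CM, 19.1 and 17.8 in Esrrb and 27.8 and 25.98 in Esrrb+Hh-CM libraries. The treated libraries were above the vehicle ones, and the Esrrb+Hh-CM libraries above the Hh-CM ones. It rose by Hh-CM in NIH3T3-pc3.1 cells (0.34, SE 0.071, adjusted p = 0.0248) and in Esrrb cells (0.54, adjusted p = 0.0036), and was 0.57 higher in Esrrb+Hh-CM than in Control (adjusted p = 0.00212, a fold of 1.487). The difference between the Hh-CM responses of the cell lines was 0.20 (SE 0.0998, adjusted p = 0.375), and the difference between Esrrb+Hh-CM and Hh-CM was 0.23 (adjusted p = 0.0731). The calls in Esrrb+Hh-CM cells passed in 18 of 18 settings, and that in NIH3T3-pc3.1 cells in 13 of 18, lost without Control replicate 2 or either Hh-CM library (adjusted p of at most 0.117).

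Mks1 (chr11:87666717-87677305, plus strand), its partner in the same module, was near the limit of 1 FPKM set for testing. It was at 0.809 and 0.93 FPKM in Control, 1.37 and 0.976 in Hh-CM, 1.22 and 0.891 in Esrrb and 1.68 and 1.74 in Esrrb+Hh-CM libraries, which were above all others. Its rise in Esrrb+Hh-CM minus Control was the largest among the called cilium genes (0.90, SE 0.232, adjusted p = 0.0292), passed in 12 of 17 settings (0.54 to 0.99, adjusted p of at most 0.117), and was lost without either library of Control or of Esrrb+Hh-CM. Cc2d2a (chr5:44053618-44132211, plus strand), a C2 domain protein of the gate, was at 4.53 and 4.6 FPKM in Control, 6.14 and 5.48 in Hh-CM, 5.39 and 4.85 in Esrrb and 6.47 and 6.17 in Esrrb+Hh-CM libraries. Control was below all others. Its rise in Esrrb+Hh-CM minus Control (0.46, SE 0.089, adjusted p = 0.0112) passed in 17 of 19 settings and was lost without Control replicate 1 or Esrrb+Hh-CM replicate 1 (adjusted p of at most 0.055). In Hh-CM minus Control its difference of 0.34 had an adjusted p of 0.0507.

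Tctn2 (chr5:125048758-125077658, plus strand), a tectonic protein, was the cilium gene that was higher with the Esrrb label alone. It was at 6.09 and 5.62 FPKM in Control, 6.45 and 6.75 in Hh-CM, 7.69 and 7.37 in Esrrb and 7.37 and 7.51 in Esrrb+Hh-CM libraries. All 4 Esrrb-labelled libraries were above the others. It rose in Esrrb minus Control (0.36, SE 0.067, adjusted p = 0.0217), which passed in 14 of 19 settings and was lost without either library of Control or Esrrb (adjusted p of at most 0.0974). It also rose in Esrrb+Hh-CM minus Control (0.34, adjusted p = 0.0118), which passed in 18 of 19 and was lost without Control replicate 2 (adjusted p of at most 0.0596). Its paralog Tctn1 was at 7.6 and 8.14 in Control, 10.7 and 9.24 in Hh-CM, 6.18 and 7.49 in Esrrb and 7.22 and 7.95 in Esrrb+Hh-CM libraries and passed in no comparison. Tmem67, the transmembrane receptor-like protein of the gate, lay at 3.36 to 5.22, Rpgrip1l, its scaffold, at 2.79 to 4.98 and Cep290, which links microtubules to the membrane, at 1.12 to 1.63 FPKM, and none passed.

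Of the BBSome and Arl6, 8 of 8 genes were above 0 in Hh-CM minus Control (7 of 8 rescaled) with a median of 0.19, yet none passed there. Bbs7 (chr3:36472064-36512399, minus strand), a propeller subunit, was at 8.27 and 8.69 FPKM in Control, 8.83 and 9.08 in Hh-CM, 10.7 and 9.44 in Esrrb and 11.4 and 11.4 in Esrrb+Hh-CM libraries. It was higher in the Esrrb-labelled libraries. It rose in Esrrb+Hh-CM minus Control (0.42, SE 0.073, adjusted p = 0.00724), in 18 of 18 settings, and in Esrrb+Hh-CM minus Hh-CM (0.35, adjusted p = 0.0259), in 11 of 18, lost without either library of Hh-CM or Esrrb+Hh-CM (adjusted p of at most 0.123). Its difference in Esrrb minus Control was 0.24 (adjusted p = 0.0763).

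Bbs9 (chr9:22280159-22692724, plus strand), a scaffold of the complex, was at 2.09 and 2.36 FPKM in Control, 3.08 and 2.86 in Hh-CM, 2.66 and 2.97 in Esrrb and 3.35 and 3.23 in Esrrb+Hh-CM libraries. Control was lowest and Esrrb+Hh-CM highest. It rose in Esrrb+Hh-CM minus Control (0.55, SE 0.110, adjusted p = 0.0127), in 16 of 18 settings, and the call was lost without Control replicate 1 or Esrrb+Hh-CM replicate 1 (adjusted p of at most 0.0632). The other 6 genes of the group passed in no comparison. Ttc8, the BBSome subunit with the highest mean, was at 20.5 and 16.1 in Control, 18.2 and 19.0 in Hh-CM, 17.3 and 17.9 in Esrrb and 17.2 and 24.95 in Esrrb+Hh-CM libraries. Bbs1 was at 2.12 to 2.96 in 7 libraries and at 4.41 in Hh-CM replicate 1, and without Hh-CM replicate 2 it passed in Hh-CM minus Control (1.02 log2, adjusted p = 0.0324). Arl6 lay at 9.44 to 14.9, Bbs2 at 8.85 to 13.4, Bbs4 at 3.26 to 4.74 and Bbs5 at 6.15 to 8.4 FPKM.

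Lipid-anchored and membrane proteins reach the cilium through Arl3, Arl13b, Inpp5e and Tulp3. Arl3 (chr19:46605599-46647575, minus strand), the GTPase that releases lipid-anchored cargo, was the most abundant cilium gene, at 87.2 and 83.7 FPKM in Control, 82.3 and 80.5 in Hh-CM, 75.3 and 73.5 in Esrrb and 80.4 and 82.4 in Esrrb+Hh-CM libraries. The Esrrb libraries were lowest. It fell by 0.20 in Esrrb minus Control (SE 0.037, adjusted p = 0.0216), in 14 of 19 settings, lost without either library of Control or Esrrb (adjusted p of at most 0.104). Arl13b (chr16:62793511-62846866, minus strand), the membrane GTPase that activates Arl3, was at 9.15 and 9.44 in Control, 9.92 and 9.38 in Hh-CM, 8.11 and 8.51 in Esrrb and 8.28 and 8.13 in Esrrb+Hh-CM libraries. All 4 Esrrb-labelled libraries were below the others. It fell by 0.23 in Esrrb+Hh-CM minus Hh-CM (SE 0.058, adjusted p = 0.0425), in 9 of 19 settings, and was lost whichever library was left out (adjusted p of at most 0.189). Inpp5e, the phosphoinositide phosphatase of the ciliary membrane, lay at 12.1 to 16.1, and Tulp3, the adaptor that brings receptors in with IFT-A, at 36.4 to 41.5 in 7 libraries and at 61.0 in Hh-CM replicate 1.

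Of the regulators of Hedgehog signaling that act in the cilium, Kif7 (chr7:86842985-86859072, minus strand), the tip kinesin that organises Gli and Sufu, was the one that changed. It was at 2.65 and 3.09 FPKM in Control, 3.66 and 3.69 in Hh-CM, 3.12 and 3.32 in Esrrb and 3.68 and 3.81 in Esrrb+Hh-CM libraries. The treated libraries lay above the vehicle ones. It rose in Esrrb+Hh-CM minus Control (0.37, SE 0.0995, adjusted p = 0.0326), in 10 of 18 settings, and was lost without Control replicate 1 and without either library of Hh-CM or Esrrb+Hh-CM (adjusted p of at most 0.132). The Kif7 call was also lost with rescaled FPKM, with no FPKM limit and with only the compared groups. Its difference in Hh-CM minus Control was 0.35 (limma adjusted p = 0.064). Evc and Evc2, partners that pass on the Smoothened signal at the base, were at 16.1 to 19.4 and 14.3 to 18.8 FPKM. Evc, the highest of the group, was at 16.1 and 19.4 in Control, 17.8 and 17.9 in Hh-CM, 18.4 and 18.3 in Esrrb and 16.9 and 17.1 in Esrrb+Hh-CM libraries. Rab23 lay at 14.2 to 15.7, and none of these 3 passed.

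**Figure D3:**
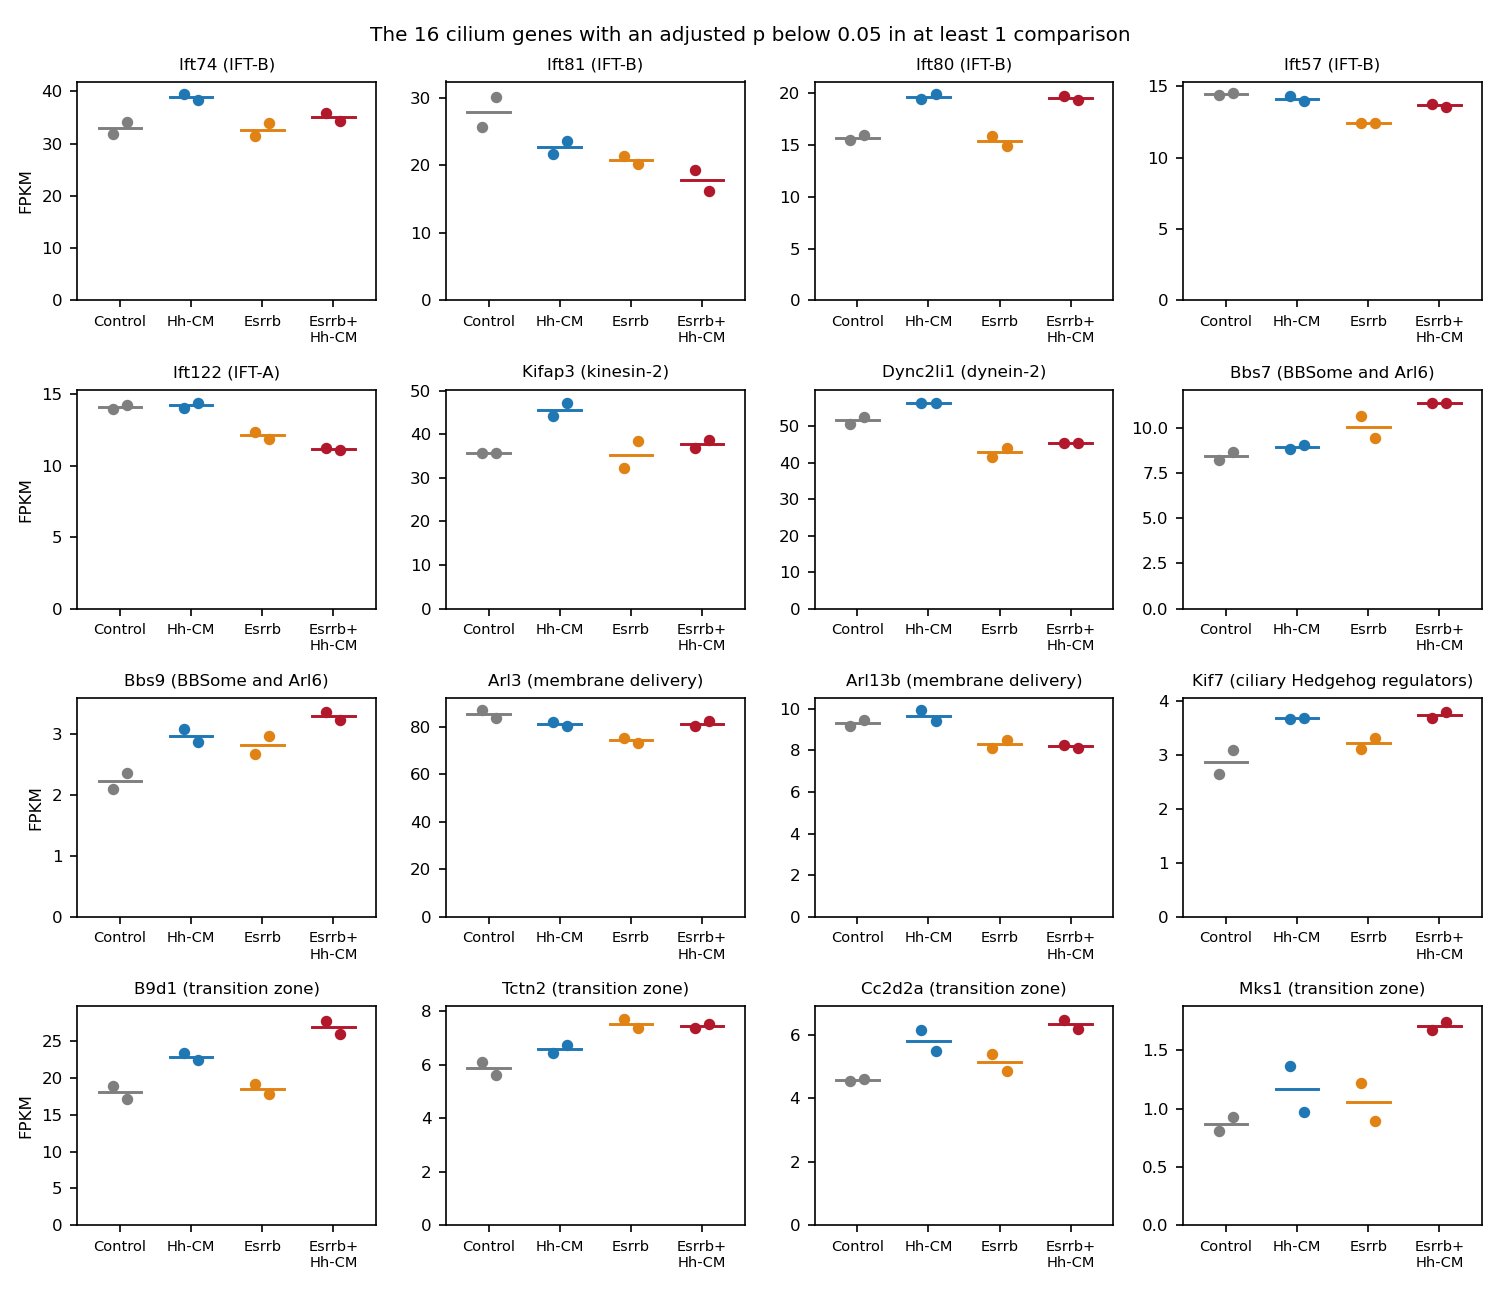
FPKM of the 16 cilium genes with an adjusted p below 0.05 in at least 1 comparison, by condition, with each library as a point and the mean as a line, on axes that start at 0. Ift80 and B9d1 stand higher in the treated libraries (Ift80 at 19.4 to 19.9 against 14.9 to 15.9), and Ift122 and Dync2li1 lower in the Esrrb-labelled ones (Ift122 at 11.1 to 12.4 against 14.0 to 14.4).

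Some values depended on how far a locus was assembled. The start and end were the same in all 8 libraries for 18 of the 43 genes, and the length differed by more than 1.1 times for 6: Ift74, Ift81, Kif3a, Bbs5, Tulp3 and Ofd1. Ofd1 (chrX:162827965-162878636, minus strand) was at 67.0 and 6.59 FPKM in Control, 55.6 and 5.03 in Hh-CM, 95.5 and 101 in Esrrb and 5.94 and 4.85 in Esrrb+Hh-CM libraries. The 4 libraries at 55.6 or more had a locus of 89.83 kb that also took in Rab9, and the 4 at 6.59 or less had one of 50.67 kb, the span of the gene. Its log2 difference of -4.17 in Esrrb+Hh-CM minus Esrrb (adjusted p = 0.0877) thus stood between loci of different length. Tulp3 in Hh-CM replicate 1 had a locus of 41.75 kb that reached 5930416I19Rik, against 34.7 kb elsewhere, and Bbs5 in the same library one of 36.98 kb that reached Kbtbd10, against 20.4 kb or less. The Kif3a values did not follow length in this way, with 15.2 to 33.5 FPKM at the same 36.87 kb. Among the 45 genes, 14 overlap another annotated gene, and of the 16 that changed, Ift57, Ift74, Arl13b and Kif7 do. For Ift57, Arl13b and Kif7 the overlapping genes lie on the opposite strand, and since the strand setting is not given in the sources used here, it is not known whether their reads were kept apart.

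The remaining genes of the list, Ift52 and Gpr161, were not tested because the overlap with the annotated gene was below 0.5 in at least 1 library. Ift52 (chr2:162843090-162871877, plus strand), a core IFT-B subunit, was at 29.8 and 30.1 FPKM in Control, 31.45 and 30 in Hh-CM, 23.6 and 23.7 in Esrrb and 25.1 and 24.3 in Esrrb+Hh-CM libraries. The Esrrb-labelled libraries lay below the others, the same arrangement as for Ift122 and Dync2li1, but in Hh-CM replicate 1 the locus ran to 67.22 kb and reached Mybl2, so no test was made. Gpr161 (chr1:167232756-167253061, plus strand), the ciliary receptor that keeps the pathway off, was at 4.32 and 3.96 in Control, 3.71 and 3.64 in Hh-CM, 4.48 and 4.59 in Esrrb and 5.49 and 4.72 in Esrrb+Hh-CM libraries, and its loci were 28.23 to 44.13 kb long.

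**Figure D4:**
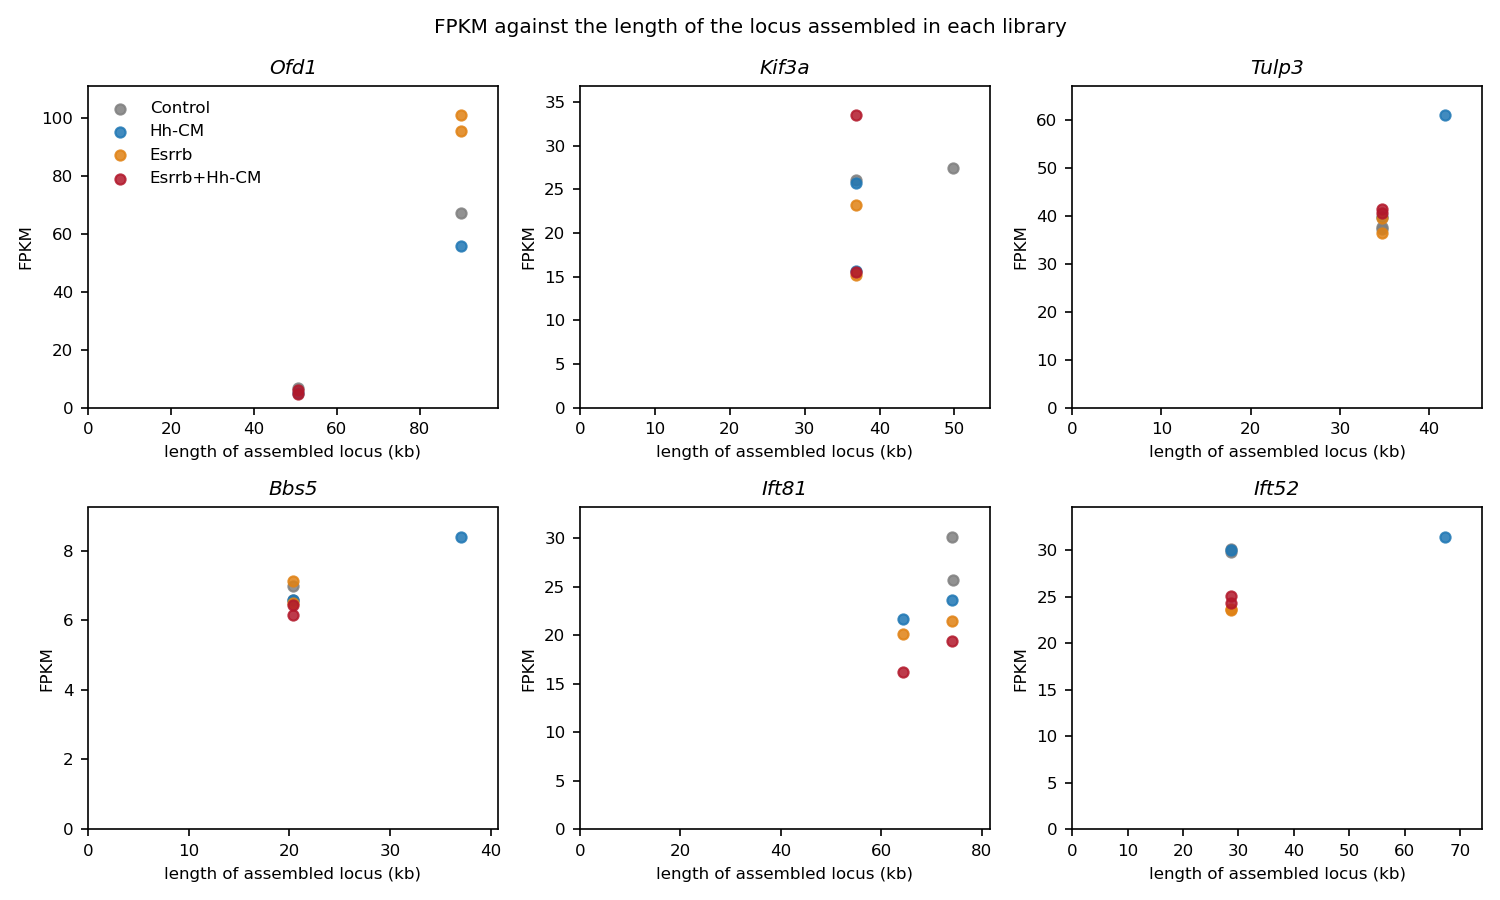
FPKM against the length in kb of the assembled locus for 6 cilium genes, each library as a point coloured by condition. For Ofd1 the libraries with the 89.83 kb locus lie at 55.6 or more and those with 50.67 kb at 6.59 or less, Tulp3, Bbs5 and Ift52 each have 1 longer locus in an Hh-CM library, and Kif3a ranges from 15.2 to 33.5 at 1 length.

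The lists of related genes give the setting of these values. Of 48 further IFT, BBS, transition zone and assembly genes 43 were tested, and 4, 2, 13, 6 and 5 of them passed in the comparisons in the order given above, none with a log2 change of at least 1 in size. These counts are below the shares of all genes in each comparison (18.0%, 16.4%, 35.1%, 18.9% and 23.4%). In Esrrb+Hh-CM minus Control 12 were higher and 1 lower, where 23.0% of all tested genes passed as higher and 12.0% as lower. Tmem231, a membrane protein of the same gate as B9d1, rose in that comparison (0.42, adjusted p = 0.00337) and in Esrrb+Hh-CM minus Esrrb (0.29, adjusted p = 0.017). Wdr34, a dynein-2 intermediate chain, rose in the same comparisons (0.42, adjusted p = 0.0107, and 0.46, adjusted p = 0.0104). Cep164, a distal appendage protein, rose in Hh-CM minus Control (0.84, adjusted p = 0.00509) and was lower in Esrrb+Hh-CM than in Hh-CM libraries (-0.50, adjusted p = 0.029). Hspb11, an IFT-B subunit, and Mkks, a chaperonin-like protein of BBSome assembly, fell in Esrrb minus Control (by 0.45, adjusted p = 0.0369, and by 0.28, adjusted p = 0.0269).

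Of the RFX factors, Rfx2 was at 0.914 and 0.917 FPKM in Control, 1.59 and 1.5 in Hh-CM, 1.12 and 1.02 in Esrrb and 1.86 and 1.72 in Esrrb+Hh-CM libraries. It rose by Hh-CM in NIH3T3-pc3.1 cells (0.70, adjusted p = 0.0225) and in Esrrb cells (0.69, adjusted p = 0.0182). Rfx1 rose in Hh-CM minus Control (0.46, limma adjusted p = 0.0467). In Esrrb+Hh-CM minus Control Rfx1, Rfx2, Rfx5 and Rfx7 rose (0.53, 0.895, 0.36 and 0.48, limma adjusted p = 0.0172, 0.00512, 0.00742 and 0.0106). Rfx2 lay near the limit of 1 FPKM set for testing, and the assembled locus of Rfx5 differed in length by 1.13 times between libraries. For the genes of these further lists no other settings are reported. Rfx3, a main regulator of cilium genes, was at 1.04 to 1.37 FPKM and passed in no comparison. Cep41, a basal body protein needed for tubulin glutamylation, rose in Hh-CM minus Control (0.48, limma adjusted p = 0.0254). Its rise in Esrrb+Hh-CM minus Control was 0.603 (limma adjusted p = 0.00642).

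Factors that take the cilium down and genes of dividing cells moved far more than the cilium genes. Of 7 tested disassembly factors, 4 passed in Hh-CM minus Control and 6 in Esrrb+Hh-CM minus Control, where 18.0% and 35.1% of all genes did. Plk1, a mitotic kinase that also promotes cilium resorption, was at 3.59 and 3.75 FPKM in Control, 7.17 and 7.93 in Hh-CM, 4.73 and 4.72 in Esrrb and 16.4 and 16.7 in Esrrb+Hh-CM libraries. Aurka, the kinase that starts resorption, rose in Hh-CM minus Control (0.82, adjusted p = 0.00243) and in Esrrb+Hh-CM minus Control (1.84, adjusted p = 6.69e-05), and Nek2 did as well (1.09 and 1.92, adjusted p = 0.00439 and 0.00027). Nedd9, the scaffold that activates Aurka, fell in Esrrb+Hh-CM minus Control (by 0.18, adjusted p = 0.02). Of the 9 proliferation genes, 8, 4, 9, 9 and 9 passed in the 5 comparisons, all higher, with medians of 0.89 in Hh-CM minus Control and 1.94 in Esrrb+Hh-CM minus Control. In bulk libraries more dividing cells and more RNA per cell cannot be told apart, and the part of either in the cilium gene values was not tested.

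**Figure D5:**
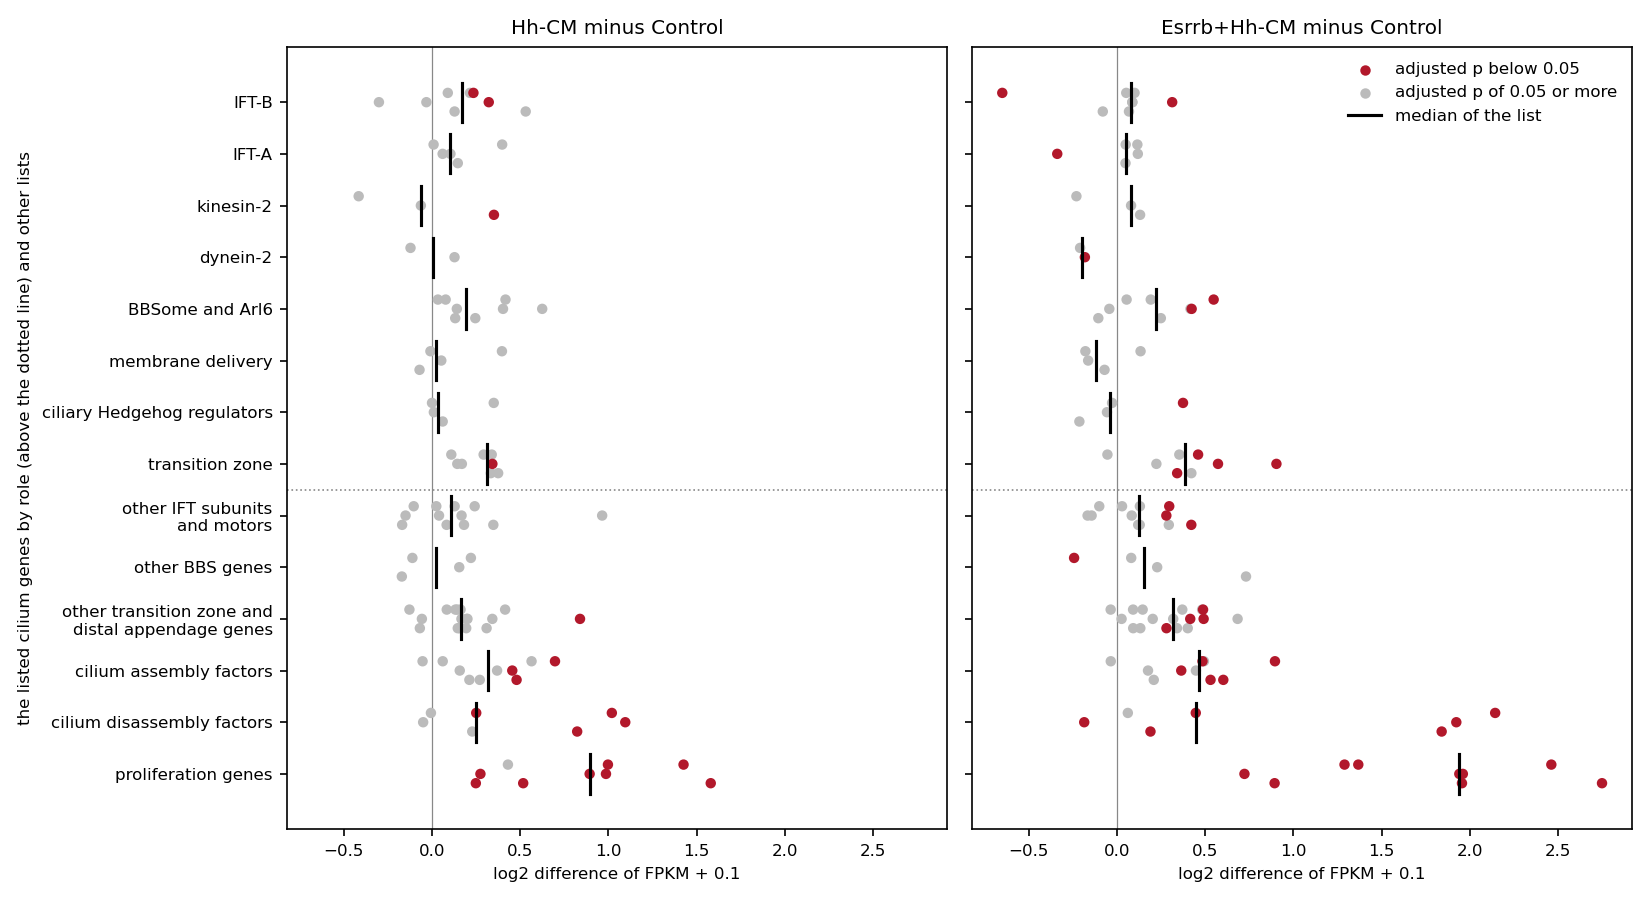
Log2 difference of FPKM + 0.1 in Hh-CM minus Control and in Esrrb+Hh-CM minus Control for the cilium genes by role (above the dotted line, without Ofd1) and for further lists, with each gene as a point coloured by its adjusted p and the list median as a line. The transition zone genes have medians of 0.31 and 0.39, the cilium assembly factors 0.32 and 0.466, and the proliferation genes 0.89 and 1.94. The other transition zone and distal appendage genes have medians of 0.162 and 0.319.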

How the data were processed

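The deposited values are FPKM, made by the authors from poly(A) RNA libraries of a stranded kit: reads were trimmed, mapped to mm9 with Bowtie2 and TopHat2, and assembled with Cufflinks separately in each library. The strand setting and versions are not given in the sources used here. Per the file headers, each FPKM has lower and upper confidence limits, also in FPKM. Columns with Cuffdiff results were not used here, and 0 columns of other samples were found. No read counts were analysed, so depth is known only in relative terms, and intervals cover the assembler's own error.

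Because library-specific locus numbers cannot be joined, loci were matched by position to the annotated genes of the same build, as the opening describes. All 8 libraries entered a fit of the 4 group means on log2(FPKM + 0.1) by limma (version 3.58.1, R 4.3.3), which used a variance trend and Benjamini-Hochberg adjustment over all 10282 tested genes. The pseudocount understates changes of low genes. The fit was tested on simulated data, where it missed many changes of 0.5 log2, and the pass rule of that test was relaxed after its first run. Exact permutation of 2 against 2 libraries cannot go below p = 0.33. Python 3.11.15, pandas 2.3.3, numpy 2.4.6 and matplotlib 3.10.9 were used for the rest.

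The genes, lists and tests were chosen with earlier results of these data known. Values in every library are given for the genes called in a comparison and for the highest of each role, and values of Ift46, Bbs1, Tulp3, Kif3a, Tctn1 and Rfx3 were added after their values were seen. Other settings were a pseudocount of 1 or of 0.001, dropping the FPKM limit or asking it of every library, the replicate block, only the compared groups, rescaled FPKM, no variance trend, the sum of all loci of a gene, a stricter overlap of 0.8, genes whose locus was the same throughout, and each library left out. Leaving out the 6 genes of changing locus length was chosen after seeing the data. Promoters are from RefSeq (GRCm38.p6).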

Additional observations from a re-analysis of the deposited data

Results flagged for a closer look

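No cilium gene of the list had an interaction with an adjusted p below 0.05. Of the disassembly factors, Plk1 had one, since its Hh-CM response was larger in Esrrb than in NIH3T3-pc3.1 cells by 0.768 log2 (limma adjusted p = 0.0319). Of the proliferation genes, Top2a (0.61, adjusted p = 0.0151), Ccna2 (0.587, adjusted p = 0.025), Cdk1 (0.551, adjusted p = 0.0259) and Ccnb1 (0.833, adjusted p = 0.0426) had one in the same direction, and all 5 were higher in both Esrrb+Hh-CM libraries than in the other 6. Groups of 2 libraries are too small to test for a library far from the others.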

How the results depend on the processing

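The 26 calls of cilium genes were repeated under alternatives, which gave 478 values: 381 kept the direction and the threshold, 97 lost the threshold and 0 changed sign. Leaving out a library gave 208 of the values and 72 of the 97 losses, where the arm with 1 library is taken to vary like the others. In all their alternatives 9 calls passed: B9d1 and Ift80 in Esrrb+Hh-CM minus Control and minus Esrrb, Ift122 in Esrrb+Hh-CM minus Control and minus Hh-CM, Dync2li1 in Esrrb+Hh-CM minus Hh-CM, and Bbs7 and Ift81 in Esrrb+Hh-CM minus Control. For B9d1, Dync2li1, Bbs7 and Ift81 the alternatives do not include the fit of genes with the same locus throughout, since their loci varied between libraries. Rescaling lost calls of Ift74, Kifap3 and Kif7. Dropping the FPKM limit lost calls of these genes and of B9d1, Bbs7 and Mks1. The replicate block lost calls of Arl13b, Bbs7, Ift122 and Ift74, and no variance trend those of Ift74 and Kifap3. Only the compared groups lost calls of Arl13b, Arl3, B9d1, Bbs7, Dync2li1, Ift122, Ift57, Ift74, Kif7 and Tctn2.

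The number of cilium genes called in Hh-CM minus Control (4) became 1 with no FPKM limit, 2 when rescaled, 2 of 18 among genes with the same locus throughout, and 1 to 4 with a library left out, 1 without either Control library or Hh-CM replicate 1. In Esrrb minus Control (5) it became 0 with only the compared groups, 3 among genes with the same locus, and 0 to 6 with a library left out: 0 without either Control library, 2 and 1 without Esrrb replicates 1 and 2, and 3 without either Hh-CM library. In Esrrb+Hh-CM minus Control (11) it became 5 among genes with the same locus and 7 to 12 with a library left out, 7 without Control replicate 1 or Esrrb+Hh-CM replicate 1. In Esrrb+Hh-CM minus Hh-CM (4) it became 2 with only the compared groups and 2 to 4 with a library left out, 2 without Hh-CM replicate 1 or Esrrb+Hh-CM replicate 2. In Esrrb+Hh-CM minus Esrrb (2) it became 2 to 5, with 5 without Esrrb replicate 1. For the interaction it was 0 to 1, the 1 being Ift46 without Esrrb replicate 1 (-1.18 log2, adjusted p = 0.0309). When rescaled, Esrrb+Hh-CM minus Control lost Kif7 as higher and gained Arl13b, Arl3, Evc2 and Ift57 as lower, which the ranges above leave out. Fewer genes are tested where the locus must be the same, and the cause of the other shifts was not tested.

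With a log2 change of at least 1 as well, leaving out a library gave 0 to 1 gene in Hh-CM minus Control (Bbs1, without Hh-CM replicate 2), 0 to 1 in Esrrb minus Control and 0 to 1 in Esrrb+Hh-CM minus Esrrb (Ift46 in both, without Esrrb replicate 1), and the fit of only the compared groups gave 1 in Esrrb+Hh-CM minus Esrrb (Ofd1, whose locus length differs).

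Rescaled medians were 0.097 in Hh-CM minus Control, -0.00276 in Esrrb+Hh-CM minus Control and -0.115 in Esrrb+Hh-CM minus Hh-CM. The last was -0.0105 among genes with the same locus and -0.0371 without the 6 genes of changing length. With a library left out the medians ran from 0.128 to 0.177 in Hh-CM minus Control, 0.00661 to 0.125 in Esrrb+Hh-CM minus Control, -0.112 to -0.0236 in Esrrb+Hh-CM minus Hh-CM, 0.049 to 0.119 in Esrrb+Hh-CM minus Esrrb and -0.13 to -0.0294 for the interaction.

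Replicate numbers did not pair the libraries: deviations of libraries with the same number correlated at -0.0594 to 0.0622 over the 6 pairs of conditions. With the replicate block the counts were 3, 4, 11, 3, 2 and 0. Depth limits genes near 1 FPKM such as Mks1, whose interval was widest.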
